A study of Macaca fascicularis with 12 samples.

Results

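The genes described are 8 targets of p53 or responders to DNA damage, MDM2, CDKN1A, GADD45A, GADD45B, BAX, BBC3, SESN1 and PCNA, in macaque brain injected with a baculovirus vector. They were taken as every probe set whose only gene symbol in the array annotation is one of these names. This gave 17 probe sets for 8 of the 14132 genes that the annotation names singly. MDM2 had 4 probe sets, GADD45A, GADD45B and BAX had 3 each, and CDKN1A, BBC3, SESN1 and PCNA had 1 each. All 8 symbols also occur in the RefSeq gene table of Macaca fascicularis.

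The samples came from 3 adult male cynomolgus macaques that served as their own controls. BV tissue was brain around 4 intrastriatal injections of BV-HSVtk in the left hemisphere, each of 10 µL with 1e8 viral particles. Mock tissue came from the right hemisphere at corresponding coordinates, where Sf9 insect cell medium without virus, purified in the same way, had been injected. Both were collected on day 2 as samples of around 100 mg, 2 per hemisphere, so that 12 arrays were available, 6 per group. Replicate numbers pair the arrays: numbers 1 and 2 are animal 1, 3 and 4 animal 2, and 5 and 6 animal 3, with odd numbers for piece 1. No uninjected tissue was analysed here, so an effect of the injection itself is shared by both groups, and side and treatment cannot be told apart.

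p53 is a transcription factor that is kept low by MDM2, a ubiquitin ligase that p53 itself induces, which makes a feedback loop. After DNA damage or other stress it raises genes that halt the cell cycle, such as CDKN1A, genes that permeabilise mitochondria, such as BAX and BBC3, and genes that aid repair and limit oxidants. Several of these genes also answer to signals other than p53, among them stress kinases and inflammatory cytokines. In bulk tissue, a change in the number of cells of a type and a change in RNA per cell cannot be told apart.

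All values are normalized log2 signals, and a fold is BV minus mock on that log2 scale, given with its standard error from limma over n = 3 animals. In that fit, 0 of the 16 member probe sets tested passed an adjusted p of 0.05, against 9 of 31660 probe sets in all (0.0284%). By the brightest probe set of each gene, the signal was higher after BV in 7 of 8 genes and lower in 1, and the median fold was 0.55 against 0.00 over all 11143 genes tested. At an unadjusted p under 0.05, 5 of the 8 genes were higher, against 5.81% of all genes. The members were chosen with earlier results of these data known, so these shares and medians are descriptions and do not test the set. Signals were higher in all 3 animals for 5 genes (18.1% of all genes) and in all 6 replicate pairs for 3 genes (4.01% of all genes). The size differed between animals, with medians over the 8 genes of 0.47, 0.25 and 0.94 in animals 1, 2 and 3, while over all genes these were between -0.00 and 0.02. The median was 0.36 without animal 3, and 0.65 without animal 2. In that last fit PCNA and GADD45A passed the test, as did 5.83% of all probe sets.

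**Figure D1:**
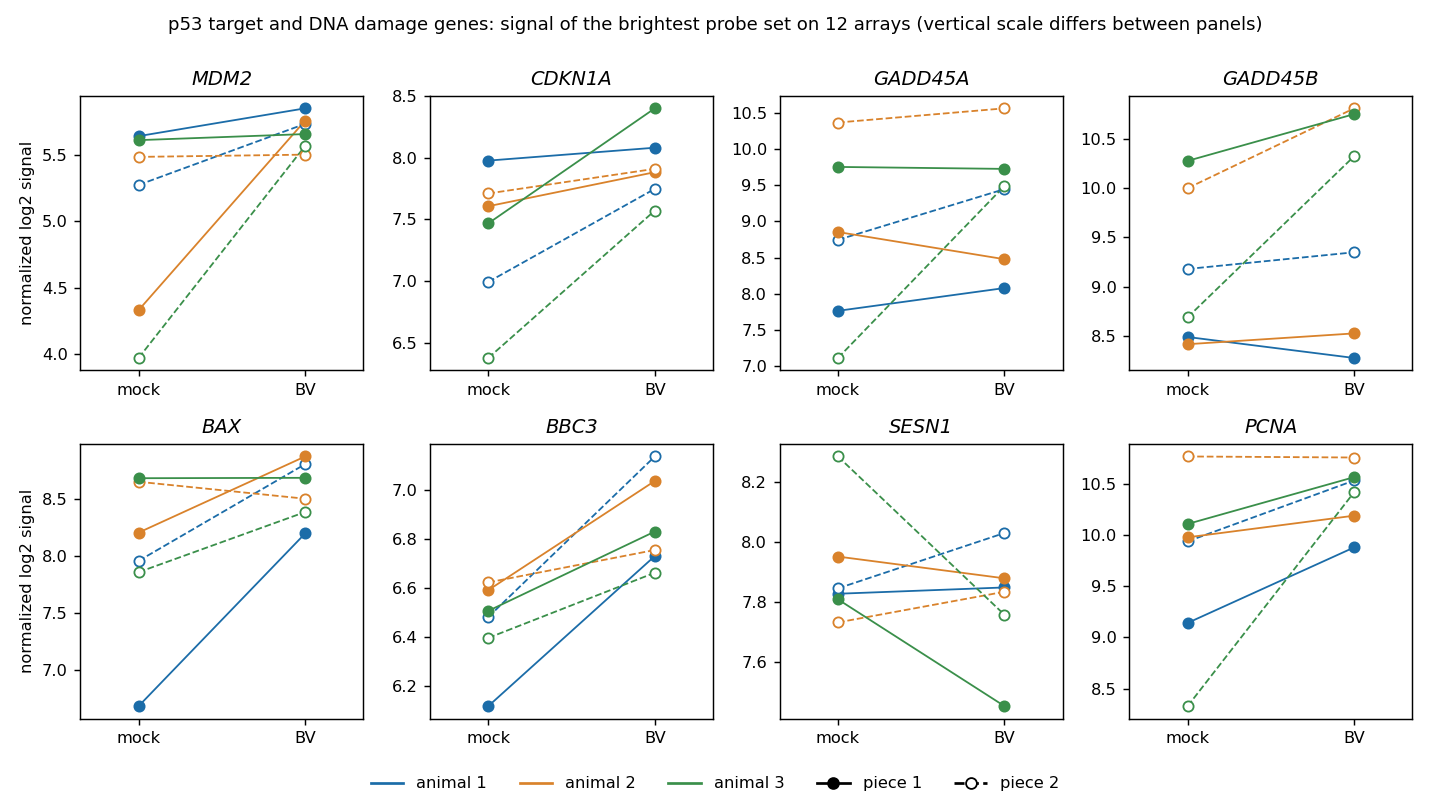
Normalized log2 signal of the brightest probe set of each of the 8 genes in mock and BV tissue, with a line joining the arrays of 1 replicate pair, coloured by animal, filled for piece 1 and open for piece 2. BBC3 is the gene whose BV arrays all lie above its mock arrays, and the mock array of animal 3, piece 2, is the lowest of the 12 for MDM2, CDKN1A, GADD45A and PCNA.

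1 mock array, number 6, stood apart in several members. It had the highest log2 ratio of actin 3' to 5' signal, a sign of RNA breakdown or incomplete labelling, at 1.26, while the other arrays had 0.14 to 0.48. It also gave the lowest of 12 signals for MDM2, CDKN1A, GADD45A and PCNA and the highest for SESN1. Of the gene lists described below, it had the lowest mean signal for p53 regulators (7.77), arrest and stress targets (6.90), cell death targets (6.65) and GADD45 partners (6.62). Its mean was the highest for repair targets (7.33) and striatal markers (10.45), and the lowest for thalamic markers (5.99). Without replicate number 6 in both groups, the median fold of the 8 genes was 0.39. The value of each of these genes without it is given beside the result, while the network folds include it. Its share in the results was not tested further.

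MDM2, the ligase that marks p53 for degradation, was dim on this array. Its brightest probe set had BV signals of 5.50 to 5.85 (median 5.69) and mock signals of 3.97 to 5.64 (median 5.38). The BV arrays were tightly grouped (SD 0.13, n = 6 arrays), and the spread of the mock arrays (SD 0.72, n = 6 arrays) came from low values of 4.33 and 3.97 in replicates 3 and 6. The BV to mock difference was above 0 in 6 of 6 pairs but close to 0 in replicates 4 and 5, with 0.21, 0.46, 1.42, 0.02, 0.05 and 1.59 in replicates 1 to 6. The fold was 0.63 ± 0.18 (95% interval 0.18 to 1.07, adjusted p = 0.564), and 0.37 ± 0.20 without replicate 6. The other MDM2 probe sets gave smaller folds. The next 2 in brightness had 0.18 ± 0.19 and 0.15 ± 0.18 (adjusted p = 0.696 and 0.735), with -0.03 and -0.02 in animal 2. The dimmest, with a mean signal of 3.32, was below the intensity filter and was not tested.

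CDKN1A encodes p21, an inhibitor of cyclin-dependent kinases that stops cells before replication and also binds PCNA. Its BV signals were 7.57 to 8.40 (median 7.90) and its mock signals 6.38 to 7.98 (median 7.54), so that the groups overlapped. Within pairs the BV array was always the higher, with differences of 0.10, 0.76, 0.28, 0.20, 0.93 and 1.20 in replicates 1 to 6. Animal 3 had the largest difference, 1.06, against 0.43 in animal 1 and 0.24 in animal 2. The fold was 0.58 ± 0.20 (95% interval 0.08 to 1.07, adjusted p = 0.564). It changed little without replicate 6, at 0.53 ± 0.17, but was 0.33 ± 0.16 without animal 3.

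The GADD45 proteins are small stress sensors that bind PCNA, p21 and the kinase MAP3K4. GADD45A is the member most tied to p53, while GADD45B is also induced by inflammatory signalling. Both were bright, and in both the groups overlapped. GADD45A had BV signals of 8.08 to 10.57 (median 9.47) and mock signals of 7.11 to 10.37 (median 8.80). The highest GADD45A signals of both groups came from piece 2 of animal 2, at 10.57 in BV and 10.37 in mock tissue. The pair differences were 0.32, 0.70, -0.38, 0.20, -0.03 and 2.38 in replicates 1 to 6, so that the fold of 0.53 ± 0.25 (95% interval -0.08 to 1.14, adjusted p = 0.569) took its largest part from replicate 6. Over left-out arrays or animals it ranged from 0.09 to 0.97. It was 0.13 ± 0.15 without replicate 6 and 0.84 ± 0.23 without animal 2 (adjusted p = 0.0487). The dimmer GADD45A probe sets had folds of 0.32 ± 0.21 and 0.31 ± 0.28, and all 3 probe sets had negative values in animal 2, at -0.09, -0.06 and -0.36.

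For GADD45B, BV signals were 8.28 to 10.81 (median 9.84) and mock signals 8.42 to 10.28 (median 8.94). In replicates 1 to 6 the differences were -0.21, 0.17, 0.11, 0.81, 0.47 and 1.63, with means of -0.02, 0.46 and 1.05 in animals 1, 2 and 3. The fold was 0.50 ± 0.22 (95% interval -0.04 to 1.03, adjusted p = 0.565), 0.30 ± 0.14 without replicate 6 and 0.22 ± 0.16 without animal 3. Over left-out arrays or animals it ranged from 0.12, without BV replicate 4, to 0.88, without BV replicate 3. The 3 probe sets of GADD45B gave similar folds, 0.50, 0.49 and 0.41. All had larger differences in piece 2 than in piece 1, with 0.87 against 0.12 for the brightest.

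The pieces were compared for all members, as they are separate tissue samples and also arrays of different signal scale. The labels name labelling reagents of different makers without saying which arrays had which, and their part in the values by piece was not tested. The fold in piece 2 minus that in piece 1 had an unadjusted p under 0.05 in 4 of 16 member probe sets, all of GADD45A or GADD45B, against 3.45% of all probe sets. For the brightest GADD45A probe set this difference was 1.12 (unadjusted p = 0.0366) and for GADD45B 0.75 (unadjusted p = 0.0201). Over all probe sets 0 passed after adjustment in this limma test (adjusted p = 0.995 for both genes). The other GADD45A probe sets did not share it, with -0.39 and 0.08. The F test of whether folds differ between animals gave 0 calls after adjustment. In it 1 member probe set, of GADD45A, had an unadjusted p under 0.05 (0.014) against 2.32% of all. This F test ran on 12 single arrays, with the pieces of a hemisphere as its only replicates, so its p-values treat them as independent.

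**Figure D2:**
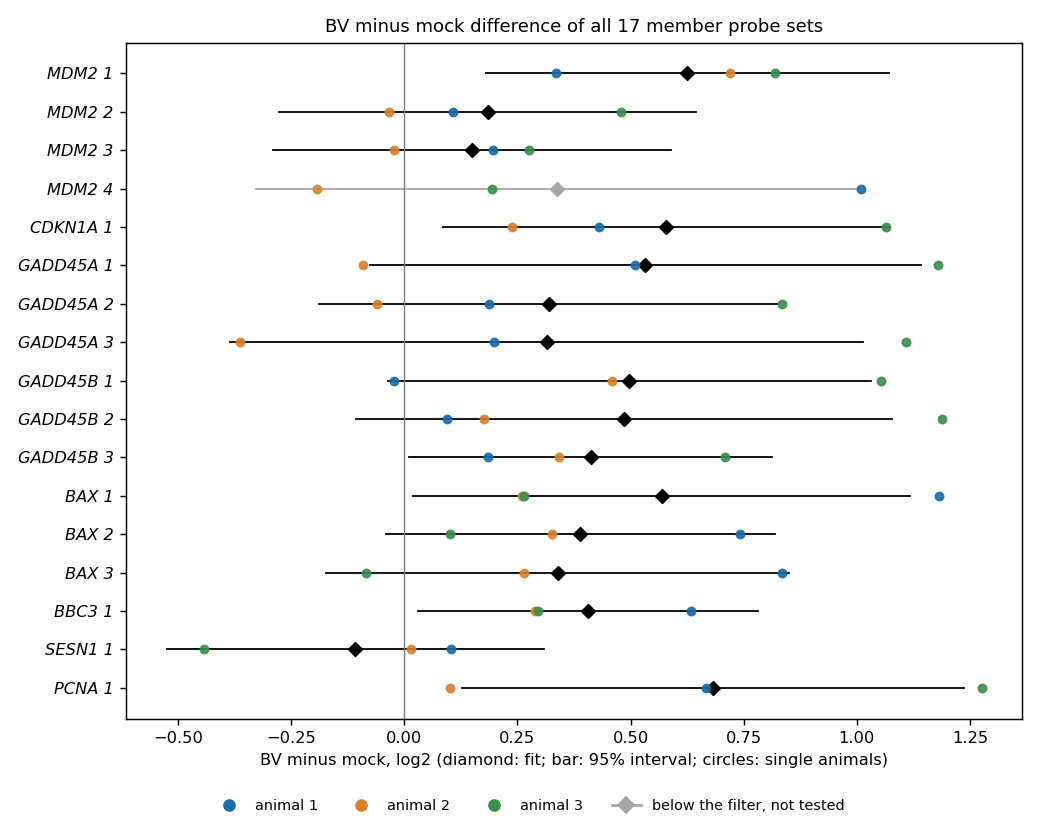
BV minus mock difference on the log2 scale for all 17 probe sets, numbered from the brightest within each gene, as the limma fit (diamond) with its 95% interval (bar) and the values of the 3 animals (circles). Probe sets other than SESN1 have estimates above 0, from 0.15 to 0.68, and the single untested probe set is grey.

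BAX and BBC3 act at the mitochondrion. BAX forms pores in its outer membrane, and BBC3, also called PUMA, is a BH3-only protein that frees BAX from its inhibitors. BAX had BV signals of 8.20 to 8.87 (median 8.60) and mock signals of 6.69 to 8.68 (median 8.08). Its largest difference was in animal 1, with 1.51 and 0.85 in replicates 1 and 2, while replicates 3 to 6 had 0.67, -0.15, 0.00 and 0.53. The fold was 0.57 ± 0.22 (95% interval 0.02 to 1.12, adjusted p = 0.564), and 0.48 ± 0.24 without replicate 6. It was 0.26 ± 0.28 without animal 1 and 0.36 ± 0.18 without mock replicate 1, the lowest BAX signal. The other BAX probe sets had folds of 0.39 ± 0.17 and 0.34 ± 0.21, and both were also largest in animal 1, at 0.74 and 0.84.

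BBC3 was the steadiest member. Its BV signals were 6.66 to 7.14 (median 6.79) and its mock signals 6.12 to 6.62 (median 6.49). The groups did not overlap, which held for 1 of the 8 genes with BV above mock and for 0.323% of all genes. The differences in replicates 1 to 6 were 0.61, 0.65, 0.45, 0.13, 0.32 and 0.27. The fold was nonetheless small, 0.41 ± 0.15 or 1.32-fold (95% interval 0.03 to 0.78, adjusted p = 0.564), and stayed at 0.42 ± 0.15 without replicate 6. Over the alternatives run, BBC3 had folds from 0.29 to 0.50 and adjusted p from 0.252 to 0.999.

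SESN1, a sestrin that lowers oxidant stress and restrains growth signalling through mTOR, was the member with a negative fold. BV signals were 7.45 to 8.03 (median 7.84) and mock signals 7.73 to 8.28 (median 7.84). The differences were 0.02, 0.18, -0.07, 0.10, -0.36 and -0.53 in replicates 1 to 6, below 0 in both pairs of animal 3. The fold was -0.11 ± 0.17 (95% interval -0.52 to 0.31, adjusted p = 0.797), and -0.08 ± 0.15 without replicate 6. It was within its error and took the opposite sign, 0.03, when arrays were median centred. The interval leaves room for a rise of up to 0.31 or a fall by up to 0.52.

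PCNA is the ring that clamps DNA polymerases to their template in replication and repair, and it is made by dividing cells as well as after damage. It had the largest fold of the 8 genes. BV signals were 9.88 to 10.76 (median 10.48) and mock signals 8.33 to 10.77 (median 9.96). The differences were 0.74, 0.60, 0.21, -0.01, 0.46 and 2.09 in replicates 1 to 6. This gave a fold of 0.68 ± 0.23 or 1.60-fold (95% interval 0.13 to 1.24, adjusted p = 0.564). The groups overlapped, and the fold was 0.41 ± 0.13 without replicate 6 and 0.38 ± 0.15 without animal 3.

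Among the fits run, member probe sets passed only in the one without animal 2. Animal 2 had the smallest differences for CDKN1A, GADD45A and PCNA, with 0.24, -0.09 and 0.10. Its BAX difference of 0.26 was like that of animal 3, 0.27. For MDM2 and GADD45B its differences, 0.72 and 0.46, were not the smallest. When it was left out, 2 of 16 member probe sets passed, against 5.83% of all probe sets: PCNA at 0.97 ± 0.20 (adjusted p = 0.0121) and the brightest GADD45A probe set at 0.84 ± 0.23 (adjusted p = 0.0487). CDKN1A had 0.75 ± 0.24 and an adjusted p of 0.0885. This fit rests on 2 animals, and its calls among the members hold only there.

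The members did not vary as 1 group over the 12 arrays. GADD45A followed PCNA (r = 0.905) and GADD45B (r = 0.832), and BAX followed BBC3 (r = 0.833), whereas CDKN1A and BAX had r = 0.196. SESN1 was negatively related to each of the other 7 genes, from r = -0.120 with BBC3 to r = -0.736 with CDKN1A. These are descriptions over 12 arrays that share animals, treatments and piece sets. They include mock array 6, the lowest for MDM2, CDKN1A, GADD45A and PCNA and the highest for SESN1. Its share in these r values was not tested. In the differences of the 6 pairs, GADD45B and BBC3 had r = -0.728, so that the pairs with the larger GADD45B difference had the smaller BBC3 difference.

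Outside the gene lists used here, the gene most like each member over the 12 arrays was found among 10998 genes, which by itself favours high values of r. For GADD45A it was CEBPD, a transcription factor of the acute phase response (r = 0.967), with a fold of 0.92 ± 0.21. For BAX it was the complement protease C1S (r = 0.938), with a fold of 1.24 ± 0.29. PCNA was most like ARPC1B, a subunit of the actin-branching Arp2/3 complex (r = 0.976, fold 0.75 ± 0.27), and CDKN1A was most like PPP3CC, a calcineurin subunit (r = 0.949, fold 0.35 ± 0.18). For GADD45B it was the splicing factor SF3A1 (r = 0.966), for SESN1 CUTL1, a homeobox factor (r = 0.957), for MDM2 the transporter ABCC6 (r = 0.897), and for BBC3 ZNF446 (r = 0.835). None of these 8 genes passed the test, with adjusted p from 0.428 to 0.670.

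**Figure D3:**
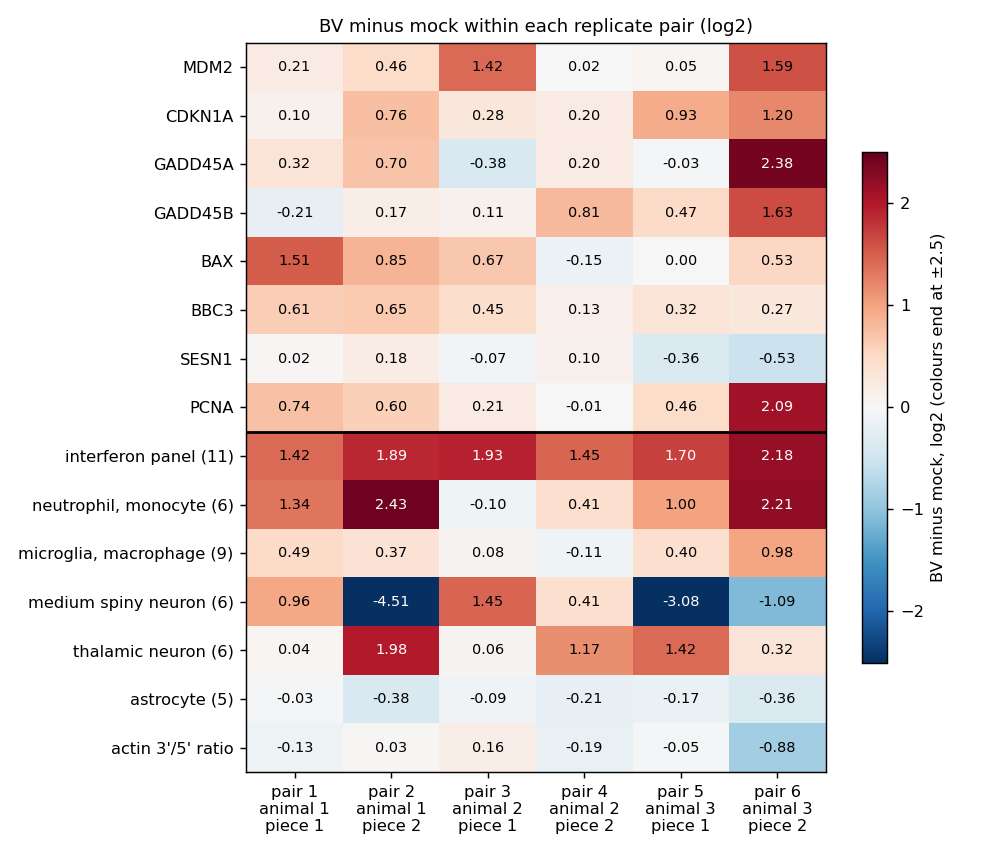
BV minus mock on the log2 scale within each of the 6 replicate pairs, for the 8 genes (above the line) and for the mean signal of marker lists and the actin ratio (below it, with the number of genes averaged). Pair 6 holds the largest differences of MDM2, CDKN1A, GADD45A, GADD45B and PCNA and the lowest actin 3'/5' difference, -0.88, while the interferon panel has 1.42 to 2.18 over the pairs.

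Markers of other cell types were read in the same arrays, and 0 of them passed the adjusted test. All 6 tested markers of neutrophils and monocytes had positive folds, 5 of them at an unadjusted p under 0.05, with a median fold of 1.21 and medians of 1.93, 0.12 and 1.60 in animals 1, 2 and 3. Their mean signal ran from 5.81 to 8.43 in BV and from 4.76 to 8.02 in mock tissue, and S100A12 was below the filter. Of the microglia and macrophage markers 7 of 9 were higher (median 0.27, mean signals 8.54 to 9.68 in BV and 8.05 to 9.56 in mock tissue). Of T and NK cell markers 3 of 4 were higher (median 0.34, mean signals 6.62 to 7.88 and 6.59 to 7.22). Endothelial markers had a median of 0.19 (4 of 4 higher), astrocyte markers -0.00 (2 of 5 higher) and red cell markers -0.06 (0 of 2 higher). The neutrophil and monocyte markers had their smallest difference in animal 2, as did CDKN1A, GADD45A and PCNA, whereas MDM2 and GADD45B had theirs in animal 1 and SESN1 its lowest in animal 3. For BAX (0.26 and 0.27) and BBC3 (0.29 in both), animals 2 and 3 were alike. The part of these cells in the results was not tested.

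The pieces also differed in the brain region they held. Markers of neurons (3 tested, mean signals 10.59 to 11.96), oligodendrocytes (2 tested, 12.05 to 12.30 in BV tissue) and astrocytes (5 tested, 10.15 to 10.72) were bright on every array, as brain tissue requires. Markers of striatal medium spiny neurons ran from 5.40 to 9.45 in BV and from 5.81 to 10.45 in mock tissue, with a median fold of -1.06 (0 of 6 higher). Thalamic markers ran from 6.31 to 9.25 and from 5.99 to 9.21, with a median fold of 0.94 (5 of 6 higher). The striatal difference was -4.51 in replicate 2 and -3.08 in replicate 5. In these pairs the mean difference of the 8 genes was 0.55 and 0.23, against 0.16 to 1.15 in the other 4. Whether region content moves the members was not tested.

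The wider p53 network was read from lists of 129 symbols, older names included, of which 91 had a probe set and 79 were tested. Of these 79 genes, 0 passed in the limma fit, and 7 higher and 2 lower genes had an unadjusted p under 0.05 (11.4% of the list against 8.69% of all genes). Their median fold was 0.08, with 53 higher and 26 lower (67.1% higher, against 50.5% of all genes). The median of the 8 members was 0.55. The lists also hold replication genes, stress kinases and genes that oppose cell death, so these medians are of unlike sets. MDM4, the partner of MDM2 in holding p53 down, was below the filter, with 4.59 after BV and 4.48 after mock injection on average.

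By role, the lists were mixed. Among p53 and its regulators (7 tested, 4 higher, median 0.04) the largest differences were negative: TP63, a p53 relative of epithelia, had -0.47 ± 0.19 and HIPK2, a kinase that activates p53, had -0.35 ± 0.12 (adjusted p = 0.564 for both). HIPK2 had 7 probe sets with folds from -0.62 to 0.50, and TP63 had 6 with folds from -0.50 to 0.15. Other targets of arrest and stress (15 tested, 11 higher, median 0.13) were led by GADD45G, the remaining GADD45 gene, at 1.07 ± 0.36 (adjusted p = 0.564), and PHLDA3, an inhibitor of AKT, at 0.74 ± 0.40 (adjusted p = 0.573). Both were largest in animal 3, at 2.18 and 2.03.

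Targets of cell death (13 tested, 7 higher, median 0.16) held PMAIP1, the BH3-only protein NOXA, at 1.17 ± 0.44, and the death receptor FAS at 0.72 ± 0.27 (adjusted p = 0.564 for both). PMAIP1 had 1.10, -0.01 and 2.43 in animals 1, 2 and 3. FAS had 4 probe sets with folds from 0.02 to 1.34. The 6 lower genes of this list were BCL2L11 (-0.29), BCL2L1 (-0.25), BCL2 (-0.24), APAF1 (-0.17), MCL1 (-0.15) and TP53I3 (-0.03). Of these, BCL2, BCL2L1 and MCL1 oppose cell death. BCL2 had -0.38, -1.42 and 1.07 in animals 1, 2 and 3. BCL2L1 had 4 probe sets with folds from -0.25 to 1.38. Repair targets (6 tested, 4 higher, median 0.07) had POLK, a polymerase that copies past lesions, at 0.37 ± 0.19 and DDB2, a sensor of ultraviolet damage, at 0.19 ± 0.19 (adjusted p = 0.570 and 0.688).

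Genes of DNA damage signalling (12 tested, 8 higher, median 0.05) had XRCC5, the Ku80 subunit that binds broken DNA ends, at 0.59 ± 0.21 (adjusted p = 0.564). XRCC5 had 2 probe sets with folds from 0.08 to 0.59. CLSPN, an adaptor of the checkpoint kinase CHEK1, had -0.31 ± 0.27 (adjusted p = 0.651). Partners of PCNA in loading and replication (16 tested, 13 higher, median 0.08) had MCM3 at 0.83 ± 0.28 and MCM5 at 0.54 ± 0.19, both subunits of the replicative helicase (adjusted p = 0.564 for both). MKI67, a marker of dividing cells chosen after its values were seen, had 0.06 ± 0.21. GADD45 partners and stress kinases (10 tested, 6 higher, median 0.06) were led by FOS, an immediate early factor, at 1.27 ± 0.41, and DUSP1, a phosphatase of stress kinases, at 0.50 ± 0.22 (adjusted p = 0.564 and 0.565).

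**Figure D4:**
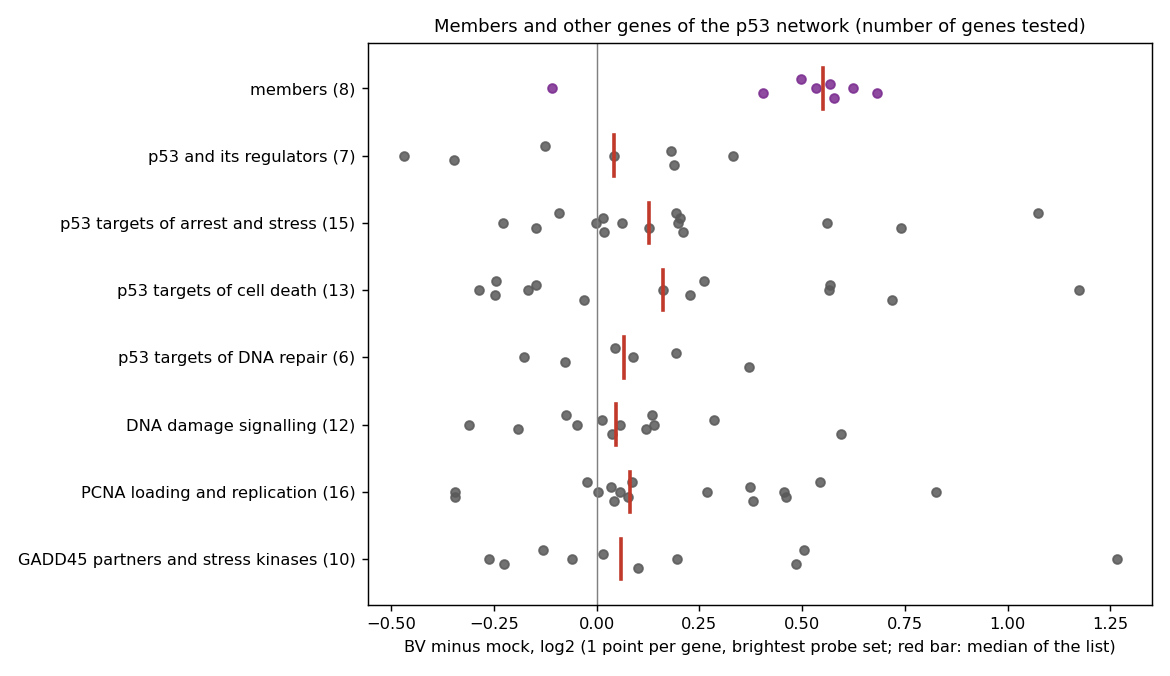
BV minus mock difference on the log2 scale for the 8 members and for the genes of 7 lists of the p53 network, 1 point per gene by its brightest probe set, with the median of each list as a red bar. List medians lie between 0.04 and 0.16, and that of the 8 members at 0.55. Members and lists were chosen with earlier results of these data known.

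The interferon panel gives the scale of the response in the same arrays. Of its 11 tested genes 10 were higher, with a median fold of 2.13, and ISG15, MX1, IFI27 and IFIT3 passed the test. The brightest probe sets of IFIT2 and IRF7 had folds of 0.005 and -0.89, while the highest folds among all probe sets of these genes were 2.56 and 2.07. Its mean signal did not overlap between groups, at 9.51 to 10.53 in BV and 7.87 to 8.80 in mock tissue, and its median differences were 2.11, 1.47 and 2.41 in animals 1, 2 and 3. The largest fold among the 8 members, 0.68 for PCNA, was below the panel's median.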

How the data were processed

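The authors deposited linear intensities per probe set for 12 arrays, 1 per tissue piece. Per the submitters' processing notes the software was GCOS 1.4.0.036. The summary method and the scaling target were not stated in these sources. Array medians ran from 25.4 to 32.7 for piece 2 and from 50.2 to 62.8 for piece 1. The intensities were quantile normalized and taken as log2(intensity + 3.49), the pseudocount being the 10th percentile, which shrinks the folds of dim genes. After removal of 99 controls, 31660 of 52766 others had a mean at or above the 40th percentile (4.95) and were tested. Of all probe sets 24969 had 1 symbol, 361 several and 27535 none listed. Cynomolgus RNA was read with rhesus probes and older names.

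Pieces were averaged per hemisphere and fitted in limma 3.58.1 (R 4.3.3) with animal as a block, eBayes with a trend and Benjamini-Hochberg adjustment over all probe sets, two-sided, at 0.05. The pairing follows from the animals: deviations of an animal's hemispheres correlated at 0.622, 0.156 and 0.361. Another test compared the folds of the pieces, and an F test those of the animals. Genes are shown by their brightest probe set. From each network list the genes named are those past the threshold or else the 2 of largest fold, plus MDM4. Outside this rule, MKI67 and the lower genes of the cell death list are also given. Members and lists were chosen with earlier results of these data known. Precision is limited by how few arrays and animals there are. p-values for single arrays, such as those of the F test, treat pieces of 1 animal as independent. No sequences are shown, as the tables used here hold none.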

Additional observations from a re-analysis of the deposited data

Results flagged for a closer look

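In 3 of 34 sets of 6 arrays (17 probe sets in each group), 1 array lay far from the others by Dixon's criterion at the 95% level, which chance alone meets in about 1 in 20 sets. The MDM2 probe set ranked 3 by brightness had 5.48 in BV replicate 2, with the next at 5.11 (ratio 0.664). The second GADD45A probe set had 8.87 in mock replicate 4, with the next at 8.06 (ratio 0.637). The dimmest BAX probe set had 5.89 in mock replicate 1, with the next at 6.73 (ratio 0.681). None of these is the probe set that stands for its gene.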

How the results depend on the processing

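The 9 probe sets called over the whole array became 1 without normalization, 5 without the filter and 1 without a variance trend. They became 55 with the replicate block on 12 arrays, and 4 with hemisphere means but no animal block, which ignores the pairing. Piece 1 arrays alone gave 14, and piece 2 arrays alone 0 (limma, where 1747 had an unadjusted p under 0.05). Leaving out single arrays or animals gave 0 to 1845. The highest counts came without animal 2 (1845), animal 3 (82), mock replicate 6 (43), mock replicate 4 (28) and BV replicate 3 (15). The lowest came without mock replicate 5 (0, with 1703 at an unadjusted p under 0.05), animal 1, BV replicate 6 or mock replicate 3 (1 each). The count of member probe sets called was 0 in the fits on all 3 animals, the replicate block included, and 0 to 2 when arrays or animals were left out. That of network genes was 0 and 0 to 6 likewise. The 6 of 79 network genes called without animal 2 were FAS, XRCC5, MCM3, FOS, PMAIP1 and DUSP1. In that fit 5.83% of all probe sets passed. The other folds that changed sign were GADD45A in piece 1 alone (-0.029) and SESN1 with median centring (0.029) and without animal 3 (0.059), its range over left-out arrays and animals being -0.21 to 0.059. MDM2, CDKN1A, GADD45B, BAX, BBC3 and PCNA kept a positive fold under every alternative run. The cause of these shifts was not tested. Leaving out both arrays of number 6 was chosen after seeing the data.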

Other observations

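Some network genes below the intensity filter had sizeable differences that were not tested, and they were chosen after their values were seen. CDT1, which licenses replication origins, averaged 5.26 after BV and 4.14 after mock injection, a fold of 1.12 ± 0.28 in the fit without the filter. MAPK14, the stress kinase p38 alpha, had 4.06 and 3.09, and BRCA1, a repair scaffold, 4.70 and 3.93. Each was higher in 5 of 6 pairs.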
